A study of Mus musculus with 62 samples.

Results

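The cytosolic ribosomal protein genes of the mouse diaphragm were followed over the growth of a melanoma that causes muscle wasting. They are the 82 rows, of 47643 genes in the table, whose symbol is Rpl or Rps followed by digits and at most one further letter a, x or l, together with Rplp0, Rplp1, Rplp2 and Rpsa. Of these, 50 belong to the large subunit (Rpl, Rplp) and 32 to the small subunit (Rps, Rpsa). RNA-seq came from the diaphragms of 62 female mice, 2 months old by the labels, which carried a cachectic melanoma xenograft, carried a non-cachectic melanoma xenograft, or had a mock injection (control), and were examined 2, 4, 6 or 8 weeks post implantation. Each condition had 5 mice, apart from the 7 with the cachectic tumor at 8 weeks. The study describes the animals as NCI Ath/nude mice, while the sample labels give the strain C57BL/6J, and this conflict could not be settled from the data. Nude mice lack a thymus and accept human tumor cells, the tumors came from patient-derived melanomas, and each kind of tumor is 1 xenograft. The values are TPM (transcript numbers on a common scale), in which reads are divided by gene length and every library is scaled to the same total, so they give relative RNA levels. In a whole muscle, fewer cells of a type and less RNA per cell cannot be told apart.

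The cytosolic ribosome translates the mRNAs of the nucleus. Its large subunit joins amino acids and its small subunit reads the mRNA, and each is built from ribosomal RNA and one copy of most ribosomal proteins, so their genes are usually expressed in step. The mRNAs of most ribosomal proteins begin with a C followed by a tract of pyrimidines, the TOP motif, through which mTORC1 and Larp1 set how much of them is translated. Striated muscle is known for one exchange of subunits: Rpl3l, a paralog of Rpl3 made almost only in heart and skeletal muscle, takes the place of the general Rpl3 near the peptidyl transferase center.

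Of the 82 members, 78 reached 1 TPM in at least 5 mice and entered the fit with 13578 genes. The other 4 were Rpl39l, Rpl6l, Rpl10l and Rps4l. Rpl39l reached at most 0.589 TPM and Rpl6l at most 0.271 TPM, while Rpl10l and Rps4l were listed at 0 in all 62 mice. Rpl39l and Rpl10l are paralogs known from testis, and Rpl6l and Rps4l are annotated as pseudogenes. Per length, Rplp1 was highest with a median of 1166 TPM over all mice, followed by Rplp0 with 776 TPM and Rps29 with 716 TPM, and Rpl27 was the lowest tested member with 14.2 TPM. The order of members is uncertain where a near-identical copy is counted as a gene of its own, which is described with Rps26 at the end.

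The labelled tissue was checked by its markers, and 9 skeletal muscle genes such as Acta1, Ckm and Myh2 summed to between 38690 and 94354 TPM in the cachectic mice and to between 48327 and 76765 TPM in the controls. Genes encoded by mitochondrial DNA held 32.5% to 61.5% of the TPM in cachectic mice and 40.9% to 49.4% in controls. A set of 4 libraries listed only 15069 to 16389 genes above 0, against at least 17909 in the others: cachectic mice 3 and 4 at 2 weeks, cachectic mouse 3 at 8 weeks and non-cachectic mouse 5 at 2 weeks. In 4 mice (control mice 2, 4 and 5 at 2 weeks and cachectic mouse 5 at 6 weeks) liver genes were high. Other mice held some too. The highest sums of 10 liver genes were 3440 TPM in cachectic mice at 2 weeks (median 90.8), 2250 TPM at 8 weeks (median 130) and 1857 TPM in controls at 4 weeks (median 189). Those mice stayed in where the 4 were left out. At 2 weeks, 27.8% of all 13578 genes were called lower in cachectic than in control mice, with a median difference of -0.42 on the log2 scale, and no member was among them.

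The share of all TPM that the 82 genes held was higher in the cachectic mice from 6 weeks on. At 6 weeks it was 3.50%, 2.75%, 2.86%, 3.14% and 2.48% in the 5 cachectic mice and 2.10%, 2.09%, 2.18%, 2.17% and 2.08% in the 5 controls. At 8 weeks it ran from 2.87% to 4.73% in the 7 cachectic mice, with a median of 3.35%, from 1.79% to 2.52% in the non-cachectic mice and from 2.05% to 2.35% in the controls. No cachectic mouse overlapped the other groups at 6 or 8 weeks. The means at 8 weeks were 3.48% ± 0.61 (SD, n = 7), 2.17% ± 0.27 (SD, n = 5) and 2.17% ± 0.11 (SD, n = 5). At 4 weeks the cachectic mice held 2.26% to 3.26% and the controls 1.98% to 2.47%, and these ranges overlapped. At 2 weeks the cachectic mice held 2.24% to 3.23%, and the highest value of that week, 3.75%, was that of non-cachectic mouse 5, a library with few genes. As a share of the TPM of nuclear-encoded genes alone, the 8-week values were 4.69% to 7.95% in cachectic mice and 3.84% to 4.04% in controls, and the 6-week values were 4.49% to 5.33% and 3.79% to 4.03%, so neither week overlapped on this scale either. These shares are a description and were not tested.

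**Figure D1:**
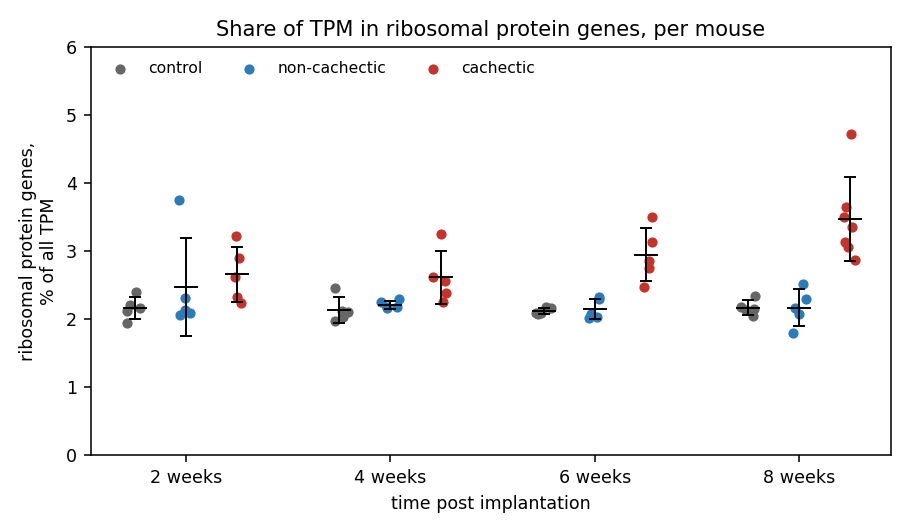
Percent of all TPM held by the 82 ribosomal protein genes (y axis) in each mouse (points) by group and week (x axis, points spread sideways for sight), with the mean and SD in black. The cachectic mice sit at 2.48% to 3.50% at 6 weeks and 2.87% to 4.73% at 8 weeks, above the controls of those weeks.

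The next comparison asked which single genes made up this difference. Each gene was compared between the groups within a week on log2(TPM + 1) with limma, and a gene was called where its Benjamini-Hochberg adjusted p over all 13578 genes was under 0.05. On this scale a difference understates the change of low genes. At 8 weeks 72 of the 78 members were higher in cachectic than in control mice, against 6.65% of all genes, and 0 were lower, against 8.12% of all genes. The median difference of the members was 0.68, which is 1.60-fold, with quartiles of 0.56 and 0.77, while the median over all genes was -0.09. By subunit, 45 of 47 tested large subunit members (median 0.67) and 27 of 31 small subunit members (median 0.68) were called higher. For 62 members every cachectic mouse lay above every control, against 2.52% of all genes.

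Compared with the non-cachectic mice at 8 weeks, 71 of the 78 members were higher, against 6.75% of all genes, and 0 were lower, against 6.19%. Their median difference was 0.69 and 59 members did not overlap, against 2.45% of all genes. Both comparisons use the same 7 cachectic mice. limma called 0 members higher between the non-cachectic and control mice in each of the 4 weeks, against 0.0147% of all genes at 2 weeks and 0% at 4, 6 and 8 weeks. No member had an unadjusted p under 0.05 there by limma or by Dunn's test. By limma 1688, 68, 100 and 55 of all 13578 genes had one at 2, 4, 6 and 8 weeks. The member medians were 0.14, 0.04, 0.03 and -0.0033. A tumor without cachexia thus went with no called member in these comparisons.

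At 6 weeks 51 of the 78 members were higher in cachectic than in control mice, against 5.62% of all genes, and 41 were higher than in the non-cachectic mice, against 4.28%. In both, 0 were lower, against 1.17% and 1.57% of all genes. The medians were 0.47 and 0.45, while all genes together were shifted by 0.17 and 0.14, and 58 and 48 members did not overlap between the groups, against 15.9% and 13.6% of all genes. This count depends on how libraries are scaled, since rescaling TPM over nuclear-encoded genes left 9 members called higher against controls and 8 against non-cachectic mice, median-ratio scaling left 0 and 0, and quantile normalization left 15 and 14. The member medians against controls were then 0.31, 0.28 and 0.30, and 75 of 78 members stayed above 0 under each. Leaving out cachectic mouse 1 lowered the counts to 20 and 14, and leaving out cachectic mouse 4 lowered them to 30 and 23. Leaving out non-cachectic mouse 1 or 5 lowered the second count to 22 or 23. The shares of all genes called under these scalings and without these mice are not given here.

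At 4 weeks all 78 members had a higher mean in cachectic than in control mice, with a median of 0.28 and values between 0.10 and 0.55. limma called 0 of them higher, against 0.0147% of all genes. An unadjusted p under 0.05 by limma was held by 36 members, against 728 of all 13578 genes in either direction. Dunn's test, a rank test, called 0, with 44 unadjusted. In data generated for the 8-week comparison with controls, with 200 genes shifted by 1 on the log2 scale, Dunn's test called 1. In the measured data it did call members against non-cachectic mice at 8 weeks. Against non-cachectic mice limma called 0 as well, against 0.0295% of all genes. There 15 members were unadjusted by limma, against 697 of all 13578 genes, and Dunn's test called 0 with 3 unadjusted. The median was 0.23. At 2 weeks 14 members were called higher than in controls, against 1.41% of all genes, and 0 than in non-cachectic mice, against 0% of all genes. In the latter limma had 1 member unadjusted, against 1709 of all 13578 genes, and Dunn's test called 0 with 10 unadjusted. The share of all genes unadjusted by Dunn's test is not given here. Among the 14 members called against controls, Rps20 was 111 ± 34 TPM (SD, n = 5) in cachectic mice and 77.6 ± 5.3 TPM (n = 5) in controls, with overlapping groups. The count rose to 48, 67 and 33 when TPM was rescaled over nuclear-encoded genes, with median-ratio scaling and with quantile normalization. Leaving out 1 mouse gave 0 to 39. The share of all genes called under each of these is not given here. These counts therefore do not set the members apart from a shift of all genes. None of the 14 calls was left without the 4 libraries with few genes, nor without the 4 mice with high liver genes, nor by Dunn's test. The libraries with few genes include cachectic mice 3 and 4 of that week. The mice with high liver genes include control mice 2, 4 and 5 of that week. With fewer mice a call is harder to reach, and why the calls were lost was not tested.

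Tests of the change itself called nothing. The cachectic minus control difference was compared by limma between 6 and 4 weeks, 8 and 6 weeks, and 8 and 4 weeks. It passed the threshold for 0 of the 78 members and for 0 of all 13578 genes. An unadjusted p under 0.05 was held by 5, 0 and 41 members, against 506, 580 and 1022 of all 13578 genes in either direction. The member medians were 0.21, 0.18 and 0.39, beside 0.12, -0.27 and -0.14 over all genes. That the members stood higher at 8 than at 4 weeks is therefore shown by the values side by side and not by a called gene.

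**Figure D2:**
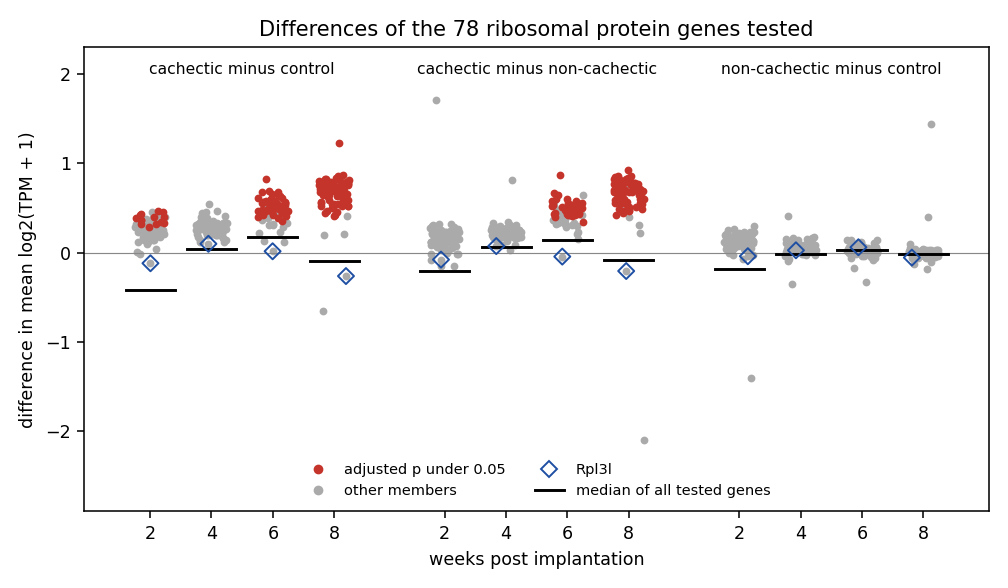
Difference in mean log2(TPM + 1) (y axis) of each of the 78 tested members (points, red where the adjusted p is under 0.05) in the 12 comparisons, by weeks post implantation (x axis), with the median of all tested genes in black. Nearly all members move up together in the cachectic comparisons at 6 and 8 weeks, with 72 of 78 called at 8 weeks against controls. Rpl3l (open diamond) stays near or under 0. At 8 weeks Rps26 lies under the rest, at -0.66 against controls and -2.10 against non-cachectic mice.

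The members with the greatest rise at 8 weeks came from both subunits. Rpl30, a large subunit protein that also binds its own RNA, stood first: it ran from 106 to 258 TPM in the 7 cachectic mice, with a median of 122 TPM, against 73.3, 76.5, 49.0, 49.6 and 48.1 TPM in the controls. The groups did not overlap, and the difference was 1.23 ± 0.27 (SE, adjusted p = 0.000646, limma), the only member above 1. Cachectic mouse 2 held the value of 258 TPM. In the non-cachectic mice of 8 weeks Rpl30 was 78.1 ± 14.5 TPM (SD), 0.40 ± 0.29 (SE) above controls and not called. Rpl30 was called higher in cachectic than in non-cachectic mice. That call was lost without cachectic mouse 1 or 2, and without non-cachectic mouse 1 or 2. Rpl39, a short protein at the exit tunnel, ran from 152 to 419 TPM against 107 to 124 TPM and rose by 0.87 ± 0.19 (adjusted p = 0.00102, limma).

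Among small subunit members, Rps27 rose by 0.86 ± 0.18 (adjusted p = 0.000367, limma) and ran from 253 to 912 TPM against 245 to 278 TPM, so the groups touched at cachectic mouse 3. Rps20 ran from 107 to 223 TPM against 74.0 to 81.7 TPM, and Rps25 ran from 773 to 1576 TPM against 548 to 596 TPM. Neither gene overlapped, and their differences were 0.84 and 0.82. Rpl36a (0.82), Rpl32 (0.81), Rps7 (0.80), Rps28 (0.80) and Rps4x (0.80) followed, all called and all without overlap. Against non-cachectic mice the leading members were Rps28, Rplp1 and Rps25, with 0.93, 0.86 and 0.86.

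At 6 weeks the order was another one. Rpl10, which takes part in the last steps of large subunit assembly, stood first when copies of the gene were not counted, with 86.3, 82.0, 57.1, 77.6 and 74.5 TPM in the cachectic mice and 51.5, 35.1, 38.3, 40.0 and 46.0 TPM in the controls. Every cachectic mouse was above every control, with a difference of 0.82 ± 0.15 (SE, adjusted p = 0.000269, limma). Rps18 (0.70), Rpl3 (0.68), Rpl39 (0.68), Rpl12 (0.66), Rpl36a (0.65), Rpl13a (0.61), Rps27 (0.61) and Rpl21 (0.60) were among those that followed, and all of these but Rpl21 were without overlap. Against the non-cachectic mice the leaders were Rpl10 (0.87), Rps27 (0.66) and Rpl21 (0.64). Under median-ratio scaling none of these passed the threshold.

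The stalk of the large subunit, which recruits the elongation factors, is built from Rplp0, Rplp1 and Rplp2. At 8 weeks Rplp0 was 1228 ± 139 TPM (SD, n = 7) in cachectic mice and 758 ± 73 TPM (n = 5) in controls, a difference of 0.69 ± 0.09 with the lowest adjusted p of any member, 1.31e-07 (limma). Rplp1 was 1909 ± 603 TPM and 1157 ± 119 TPM, a difference of 0.68 ± 0.17 (adjusted p = 0.00306). Rplp2 was 252 ± 80 TPM and 178 ± 9 TPM, and its difference of 0.41 ± 0.17 did not pass the threshold (adjusted p = 0.0943). One library decided that: Rplp2 was at 96.8 TPM in cachectic mouse 3, a library with few genes, against 232 to 360 TPM in the other cachectic mice, and without that mouse the difference was 0.63 ± 0.13 (adjusted p = 0.000306). At 6 weeks Rplp0 was 0.48 ± 0.10 higher (adjusted p = 0.000639), while the values of Rplp1 and Rplp2 were 0.23 ± 0.18 and 0.29 ± 0.18 and did not pass. At 2 and 4 weeks none of the 3 was called, with Rplp0 at 737 to 943 TPM and 763 to 1038 TPM in cachectic mice and 614 to 823 TPM and 724 to 884 TPM in controls.

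Against controls at 8 weeks the members that did not pass were Rpl3l, Rplp2, Rps2, Rps12, Rps13 and Rps26, 6 in all. Without cachectic mouse 3 the count called higher was 76 of 78, and only Rpl3l and Rps26 were left out. The share of all genes called without that mouse is not given here. Rps2 then had 0.31 ± 0.11 (adjusted p = 0.0436), Rps13 0.34 ± 0.11 (adjusted p = 0.0214) and Rps12 0.96 ± 0.33 (adjusted p = 0.0322). With that mouse they had 0.20 ± 0.12, 0.20 ± 0.13 and 0.86 ± 0.32, all short of the threshold. Rps12 also has an abundant pseudogene, Rps12-ps3, described under other observations. No sum of the pair was fitted, and its part in the spread of Rps12 was not tested. Rpl3l and Rps26 are described in turn below.

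Rpl3l (ENSMUSG00000002500, chr17:24727820-24736143 on the plus strand of GRCm38) was not called higher in any week. At 8 weeks it ran from 214 to 454 TPM in the cachectic mice, with a median of 377 TPM, against 381, 430, 409, 439 and 387 TPM in the non-cachectic mice and 408, 442, 415, 442 and 418 TPM in the controls. The cachectic mice spread wider than the controls and overlapped them on both sides. The difference was -0.26 ± 0.14 (adjusted p = 0.228, limma). Without cachectic mouse 3 it was -0.14 (adjusted p = 0.527, limma). Rpl3l was called lower, at -0.36 and -0.39, when TPM was rescaled over nuclear-encoded genes or quantile normalized (limma adjusted p = 0.00669 and 0.00759), and was -0.11 under median-ratio scaling (adjusted p = 0.539). At 6 weeks Rpl3l was 444, 405, 416, 471 and 359 TPM in cachectic and 366, 445, 434, 393 and 434 TPM in control mice, with a difference of 0.01 ± 0.15 that turned to -0.15, -0.18 and -0.21 under the other 3 scalings.

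Rpl3 (ENSMUSG00000060036, chr15:80077791-80091868 on the minus strand) rose with the other members. At 8 weeks it ran from 77.9 to 125 TPM in the cachectic mice, with a median of 98.9 TPM, against 52.6, 44.9, 66.6, 55.6 and 62.9 TPM in non-cachectic and 51.5, 60.1, 59.2, 56.8 and 55.1 TPM in control mice. No cachectic mouse overlapped either group, and the difference from controls was 0.78 ± 0.15 (SE, adjusted p = 0.000133, limma), or 1.72-fold. At 6 weeks it was 112, 79.6, 76.1, 87.9 and 72.6 TPM against 51.3, 57.7, 55.1, 48.0 and 51.3 TPM in controls, a difference of 0.68 ± 0.16 (adjusted p = 0.00517) that fell short of the threshold under median-ratio scaling. At 4 weeks the cachectic mice had 51.9 to 79.3 TPM and the controls 49.3 to 65.5 TPM, and at 2 weeks 39.8 to 77.6 TPM and 42.9 to 70.4 TPM. Those ranges overlapped, and neither week was called.

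The ratio of Rpl3l to Rpl3 within a mouse does not depend on how its library was scaled. In the controls of 8 weeks Rpl3l had 7.00 to 7.92 times the TPM of Rpl3, in the non-cachectic mice 6.13 to 9.57 times, and in the cachectic mice 1.71 to 5.60 times. At 6 weeks the ratios were 7.14 to 8.45, 5.90 to 8.82 and 3.96 to 5.47. In neither week did a cachectic mouse reach the lowest mouse of another group. The mean log2 ratio fell by 1.05 at 8 weeks and by 0.66 at 6 weeks against controls, and by 1.00 and 0.58 against non-cachectic mice. In exact two-sided permutation tests the adjusted p over 12 comparisons was 0.0152 for both at 8 weeks and 0.0238 for both at 6 weeks. These rest on an exact p of 0.00253 and 0.00794, the smallest that groups of 7 and 5 and groups of 5 and 5 allow. All 4 stayed under 0.05 without any one mouse, without the libraries with few genes and with a pseudocount of 0.1. Since the groups did not overlap, leaving mice out could only return the smallest p that the remaining group sizes allow. The fits without mice therefore add no separate support.

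Put as a share, Rpl3 made up 22.4% ± 7.7 (SD, n = 7) of the TPM of the pair in cachectic mice at 8 weeks and 11.7% ± 0.51 (n = 5) in controls. At 6 weeks it made up 16.9% ± 1.9 and 11.3% ± 0.65 (n = 5 each). Rpl3l thus stayed the more abundant paralog in all 62 mice, with the lowest ratio, 1.71, in cachectic mouse 3 at 8 weeks. At 2 and 4 weeks the ratio did not pass the test against controls (adjusted p = 0.914 and 0.935, exact permutation test), and at 2 weeks it ranged from 3.73 to 9.44 in cachectic, 2.60 to 11.4 in non-cachectic and 3.84 to 8.81 in control mice. The non-cachectic mice did not pass against controls in any week (adjusted p of 0.552 to 1, exact permutation test). The coding sequences of Rpl3 and Rpl3l share 74.4% of 1189 aligned bases, and no copy of Rpl3l at 95% identity was found. Rpl3 had 7 such copies, 6 of them among the genes with TPM values, and none of those reached 1 TPM in any mouse. How reads shared with them were counted is not known.

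**Figure D3:**
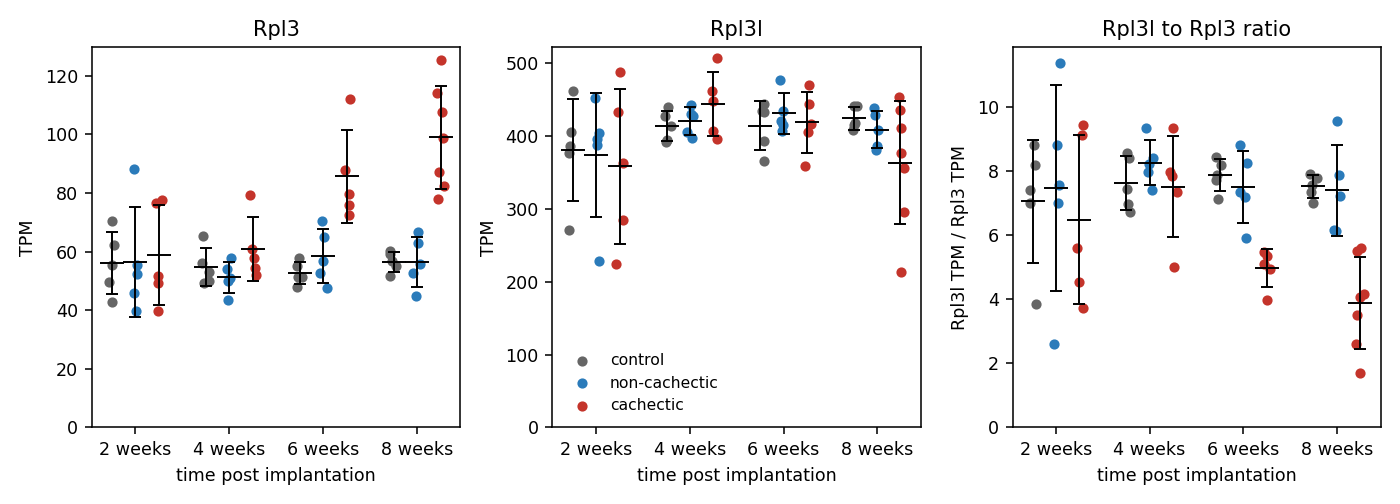
TPM of Rpl3 (left), TPM of Rpl3l (middle) and the ratio of Rpl3l to Rpl3 (right) in each mouse (points) by group and week (x axis), with mean and SD in black. Rpl3 is higher in cachectic mice at 6 and 8 weeks, Rpl3l overlaps the controls, and the ratio of the cachectic mice, 3.96 to 5.47 at 6 weeks and 1.71 to 5.60 at 8 weeks, lies under that of every other mouse of those weeks.

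The genes whose values ran closest to each paralog over the 62 mice were of unlike kinds. For Rpl3 these were Ssr4 (r = 0.91), Gnb2l1 (0.90), Rpl6 (0.90), Plac8 (0.89) and Serpinb6a (0.89), of which Gnb2l1, now called Rack1, and Rpl6 are parts of the ribosome. For Rpl3l they were Atp5b (r = 0.93), Oxa1l (0.93), Ecsit (0.92), D10Jhu81e (0.92) and Pygm (0.92), of which Atp5b is a subunit of mitochondrial ATP synthase and Pygm the muscle glycogen phosphorylase. These Pearson correlations of log2(TPM + 1) are a description over mice that share groups and library scaling. Over the same mice, 66 of the 78 members correlated above 0.8 with the mean of the others (median r = 0.92), and 48 did so with condition means removed (median 0.86). Rpl3l (-0.37) and Rps26 (-0.36) were the 2 members with a negative value, followed by Rps2 (0.47), Rps13 (0.51), Rps12 (0.55) and Rplp2 (0.58).

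For the other pairs no ratio was tested. Rpl39l, Rpl10l and Rps4l were at or near 0, so Rpl39, Rpl10 and Rps4x made up nearly all of their pairs in every mouse. The mean of Rpl39 at 8 weeks was 222 ± 97 TPM in cachectic and 114 ± 7 TPM in control mice. Rpl10 was 70.1 ± 10.5 and 41.4 ± 4.8 TPM, a difference of 0.74 ± 0.14 (adjusted p = 0.00013, limma), and Rps4x was 740 ± 168 and 418 ± 28 TPM. Rps27l, a paralog of Rps27 with 76.5% identity over 226 aligned coding bases and known as a target of p53, was called as well, at 119 ± 38 and 85.3 ± 6.9 TPM, with 0.43 ± 0.12 (adjusted p = 0.0122). At 6 weeks Rps27 was called with 0.61 and Rps27l was not, with 0.22 ± 0.13. At 2 weeks Rps4x was called (0.38 ± 0.15, adjusted p = 0.0456), and no member was called at 4 weeks.

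Many near-identical copies of ribosomal protein genes lie in the mouse genome, and how reads that match several of them were counted is not given in the sources used here. With a copy defined by 95% identity over 90% of the longest coding sequence of a member, 64 members had a copy in the table. By this rule 26 copies of 20 members reached 1 TPM. For Rpl27, Rpl10, Rps18 and Rps2 the copies so found held more TPM than the member, with medians of 96.9%, 94.7%, 90.9% and 76.0% of the sum over mice. The rule gave Rps12 no copy and so left out the abundant Rps12-ps3, described under other observations. Copies of other members may be missed too, and the counts below with copies added leave these out. Adding the copies to their members left the counts at 73 and 50 members called higher against controls at 8 and 6 weeks. Rpl10 at 8 weeks was then 0.79 higher in place of 0.74, and at 6 weeks 0.51 in place of 0.82, under Rps18 with 0.54. Rps27 at 6 weeks then missed the threshold (adjusted p = 0.0801, limma). This way of counting was chosen after the values were seen.

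Rps26 (ENSMUSG00000025362, chr10:128624534-128626747 on the minus strand) is the case where the copy decides the reading. It took 3 separate levels over the mice. In 44 mice it was 336 to 629 TPM, with the processed pseudogene Rps26-ps1 (chr8:107439131-107439579, minus strand) at no more than 1.22 TPM. In 14 mice Rps26 was 176 to 302 TPM and Rps26-ps1 214 to 379 TPM. In 4 mice Rps26 was 0.122 to 0.622 TPM and Rps26-ps1 493 to 1117 TPM. The 4 were cachectic mice 2 and 4 at 8 weeks, control mouse 3 at 8 weeks and non-cachectic mouse 5 at 2 weeks, so each group held mice of every level. The coding sequence of Rps26 and the matching stretch of Rps26-ps1 differ at 2 of 345 bases, C30T and G270A, counted from the first base of the start codon with Rps26 first. The stretches around both are shown from the GENCODE M21 transcripts, with the differing base in capitals, because only reads across them tell the pair apart within the coding sequence.
Rps26, bases 16 to 44: agaaacaacggtcgCgccaaaaagggccg
Rps26-ps1, the same bases: agaaacaacggtcgTgccaaaaagggccg
Rps26, bases 256 to 284: aatcgatcccgcgaGgcccggaaggaccg
Rps26-ps1, the same bases: aatcgatcccgcgaAgcccggaaggaccg

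Alone, Rps26 had a difference of -0.66 ± 1.16 (SE) at 8 weeks against controls, which says little beside its spread (adjusted p = 0.77, limma). Summed with its copies it behaved like the other members in size, with 0.67 ± 0.15 (adjusted p = 0.00117, limma). The sum of Rps26 and Rps26-ps1 was 453 to 1118 TPM in the cachectic mice of 8 weeks and 345 to 493 TPM in the controls, and these ranges overlapped at cachectic mouse 3. What sets the 3 levels was not tested.

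**Figure D4:**
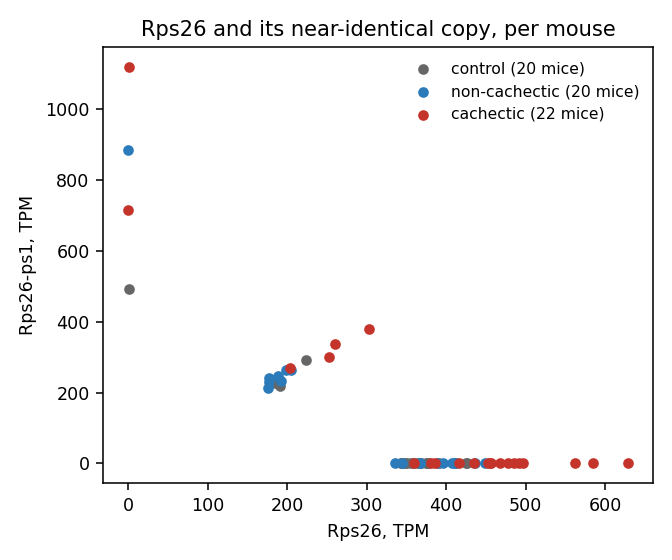
TPM of Rps26 (x axis) and of its near-identical copy Rps26-ps1 (y axis) in each of the 62 mice (points, coloured by group). The mice fall on 3 levels, 44 with Rps26 alone, 14 with both and 4 with Rps26-ps1 alone, and every group has mice on each.

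The start sites of the members were read next for the tract that marks their mRNAs. RefSeq start sites of GRCm38.p6 were at hand for 60 of the 82 members, and for each the 15 bases before and the 15 bases from the listed start were searched on the sense strand for the longest unbroken run of C and T. A run of at least 7 stood at a listed start of 33 of the 60 members (55.0%) and of 21.2% of the 26962 other genes in that table. The motif CCGGAAG, a site shape of ETS factors, was in the 300 bases around a start (either strand) of 25 members (41.7%) and of 9.86% of the other genes. A listed start can lie some bases from the true one, a run is not a proof of a TOP motif, and Rpl3, Rpl30, Rps20 and Rpl32 had no entry. Runs shorter than that stood at the starts of many members too, Rpl3l among them. To show both kinds, 7 members named above with a run of at least 7 are followed by Rpl3l and 4 other members named above with runs of 3 to 5 bases, with the longest run in capitals.
Rps27 (chr3:90213634-90213663, minus strand): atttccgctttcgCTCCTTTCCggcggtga
Rpl13a (chr7:45128731-45128760, minus strand): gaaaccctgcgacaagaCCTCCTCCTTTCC
Rps18 (chr17:33955651-33955680, minus strand): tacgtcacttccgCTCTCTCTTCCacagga
Rplp2 (chr7:141447636-141447665, plus strand): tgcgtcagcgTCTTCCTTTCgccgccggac
Rpl39 (chrX:37085208-37085237, minus strand): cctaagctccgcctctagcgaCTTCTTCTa
Rpl12 (chr2:32961697-32961726, plus strand): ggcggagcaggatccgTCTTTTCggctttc
Rps25 (chr9:44407699-44407728, plus strand): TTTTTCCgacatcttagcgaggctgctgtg
Rpl3l (chr17:24727811-24727840, plus strand): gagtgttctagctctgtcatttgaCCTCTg
Rplp0 (chr5:115559452-115559481, plus strand): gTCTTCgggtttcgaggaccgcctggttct
Rps7 (chr12:28635939-28635968, minus strand): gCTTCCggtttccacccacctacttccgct
Rps4x (chrX:102189377-102189406, minus strand): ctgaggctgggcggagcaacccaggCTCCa
Rpl10 (chrX:74270801-74270830, plus strand): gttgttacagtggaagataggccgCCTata

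Other genes of the ribosome and of translation are given beside the same background at 8 weeks, 6.65% of all genes higher and 8.12% lower. Of 7 ribosome components that the symbol pattern leaves out, 5 were called higher at 8 weeks against controls (median 0.46), among them Rps3a1 (0.81), Gnb2l1 (0.56), Fau (0.56) and Rpl36al (0.46). Rpl22l1 (0.46 ± 0.20) and Rpl7l1 (-0.15 ± 0.11) did not pass. Of 22 genes of elongation and other known TOP mRNAs, 8 were higher and 0 lower (median 0.21), among them Eef1a1, the elongation factor that brings aminoacyl-tRNA (1050 ± 168 against 679 ± 94 TPM), Eef1b2, Btf3 and the initiation factor subunits Eif3e, Eif3h and Eif3m. The noncoding TOP transcripts Snhg1 (0.81 ± 0.16) and Gas5 (0.59 ± 0.20) were called too. Of 28 initiation factor genes 6 were higher and 0 lower, with a median of 0.09.

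Genes that make ribosomes are set beside the same shares. Of 60 tested ribosome biogenesis genes, 10 were higher and 1 lower at 8 weeks (median 0.08), led by Npm1, a nucleolar chaperone, at 138 ± 23 against 89.5 ± 5.9 TPM (0.60 ± 0.10). Of 20 tested RNA polymerase I genes, 4 were higher and 0 lower (median 0.14), among them Polr1c and Polr1e. The 77 mitochondrial ribosomal protein genes, which serve the separate ribosome of that organelle, counted 5 higher and 15 lower against 6.65% and 8.12% of all genes, with a median of -0.08 beside the -0.09 of all genes. At 6 weeks they counted 0 higher and 1 lower (limma, median -0.06), while the 22 elongation and TOP genes counted 7 higher and 0 lower (median 0.36), against 5.62% and 1.17% of all genes.

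Of 31 tested genes of mTORC1 and the control of translation, 6 were higher and 3 lower at 8 weeks, against 6.65% and 8.12% of all genes. Genes known to hold mTORC1 or cap-dependent translation back were called in both directions, 4 higher and 2 lower. Eif4ebp1, which binds the cap-binding factor eIF4E, was 344 ± 191 TPM (SD, n = 7) against 87.7 ± 13.8 TPM (n = 5), a difference of 1.76 ± 0.25 (SE). Ddit4, an inhibitor of mTORC1, was 99.1 ± 82.6 against 12.1 ± 4.9 TPM, a difference of 2.50 ± 0.56. Eif4ebp3 (0.94) and Sesn1 (0.92) were also higher. Myc, a transcription factor known to drive ribosome production, was higher with 8.42 ± 3.89 against 2.76 ± 0.52 TPM (1.10 ± 0.31), as was Rheb (0.23), while Sesn3 (-0.87) and Ddit4l (-0.89), both restraints of mTORC1, and Mycn (-1.14) were lower. At 6 weeks Myc (1.58) and Eif4ebp1 (1.32) were called higher and Mycn (-0.52) lower, against the same 5.62% and 1.17%.

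**Figure D5:**
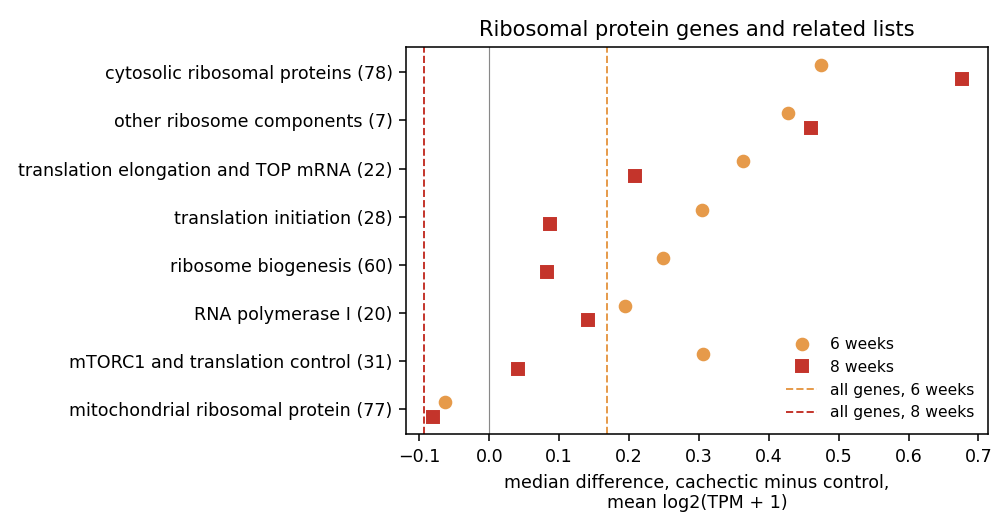
Median difference in mean log2(TPM + 1) between cachectic and control mice (x axis) of the ribosomal protein genes and 7 related lists (y axis, number of tested genes in brackets) at 6 weeks (circles) and 8 weeks (squares), with the median of all tested genes as dashed lines. The ribosomal protein genes stand highest at both weeks (0.47 and 0.68) and the mitochondrial ribosomal proteins lie near or under 0 (-0.06 and -0.08).

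Markers of other cells moved as well. The same shares of all genes, 6.65% higher and 8.12% lower, apply to these counts. At 8 weeks 3 of 6 macrophage markers were called higher in cachectic mice, and their summed level was 104 to 271 TPM against 75.2 to 118 TPM in controls. Of 4 tested neutrophil markers 2 were higher, with sums of 8.86 to 73.3 TPM over the 5 markers against 4.13 to 14.95 TPM. No macrophage or neutrophil marker was at 0 in every mouse of either group. Fibroblast markers counted 1 higher and 3 lower of 5, adipocyte markers 1 higher of 5, endothelial markers 1 lower of 4 and skeletal muscle markers 1 lower of 9, while limma called none of the liver, lymphocyte, red cell, satellite cell or mesothelium markers. Their part in the ribosomal protein values was not tested.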

How the data were processed

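RNA-seq libraries came from the diaphragm of 62 mice, 1 library a mouse. Trimmed reads were mapped by the authors in CLC Genomics Workbench against mouse build mm10 (GRCm38), and TPM per gene was deposited, in which each library sums to 1000000. The labels and the study name different mouse strains and library kits, and the handling of multi-mapping reads and strand is not given in the sources used here. Depth in reads is unknown, so no counting error is given.

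From the deposited TPM, log2(TPM + 1) was, for the 13578 genes that reached 1 TPM in 5 or more mice, fitted with limma (3.58.1, R 4.3.3) as 12 condition means with a trended prior. p-values were adjusted by Benjamini-Hochberg over all genes per comparison. The Rpl3l to Rpl3 ratio was tested with exact two-sided permutation tests in SciPy (1.17.1). Nothing says whether mice shared a litter or cage, so p-values measure the spread between these mice. The fit was checked on generated data.

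The members, related lists and tests were chosen with earlier results of these data known. Named members are the paralog pairs and the stalk, the 10 called with the greatest difference each way at 6 and 8 weeks against controls, up to 3 each way in other comparisons, members under the filter and the 5 genes most correlated with Rpl3 and Rpl3l. The members that missed the threshold at 8 weeks, and Rps26-ps1, were added after their values were seen. Some genes that the rule names are not reported here. Older symbols were matched through RefSeq synonyms. Copies were found with BLAST (2.17.0+) in GENCODE M21 transcripts. Alternatives were another pseudocount, no filter, 3 scalings, array weights, a replicate block, fits of 2 groups, Dunn's test, a fold limit and leaving out libraries.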

Additional observations from a re-analysis of the deposited data

Results flagged for a closer look

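Gaps between neighbouring mice were examined in 96 sets (8 quantities in 12 conditions). In 12 sets a mouse had a gap to its neighbour that was large for its group. Chance gives about 1 in 20 under the rule, but not for values that fall on separate levels, as those of Rps26 do. The 8 quantities also overlap and come from the same mice, so the count cannot be judged against that rate. Cachectic mouse 2 at 8 weeks was the highest of its group in the share of TPM in ribosomal protein genes (4.73%, next 3.66%), in Rpl30 (258 TPM, next 167 TPM) and in the sum of Rps26 and Rps26-ps1 (1118 TPM, next 714 TPM). Non-cachectic mouse 5 at 2 weeks, a library with few genes, was the highest of its group in the share (3.75%, next 2.31%) and in the Rps26 sum (883 TPM, next 449 TPM), and the lowest in Rpl3l (229 TPM, next 389 TPM). Control mouse 5 at 4 weeks was the highest in the share (2.47%, next 2.12%) and in the Rps26 sum (517 TPM, next 378 TPM), and the lowest in Rps26 alone (224 TPM, next 343 TPM). Control mouse 3 at 8 weeks had 0.442 TPM of Rps26 beside 345 TPM in the next mouse. Control mouse 2 at 2 weeks, one of the mice with high liver genes, had the lowest log2 ratio of Rpl3l to Rpl3 (1.93, next 2.78). Control mouse 5 at 6 weeks had 172 TPM of Rps12, against 278 TPM in the next mouse.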

How the results depend on the processing

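The 8-week rise kept its direction, with member medians between 0.54 and 0.83 under the alternatives run. The cachectic ratio of Rpl3l to Rpl3 at 6 and 8 weeks kept its call, which for left-out mice was fixed by groups that did not overlap. The 6-week and 2-week counts did not hold, and where no cause is shown by construction the cause was not tested. Depth is unknown, and reads shared with copies limit single members. Counts of members higher than controls at 2 weeks (14) became 7 with no filter, 48 over nuclear-encoded TPM, 67 with median-ratio scaling, 33 with quantile normalization, and 0 with array weights, without the 4 libraries with few genes, without the 4 mice with high liver genes, in a fit of 2 groups, by Dunn's test and with a log2 difference over 1. At 4 weeks (0) they became 35 with array weights and 4 without the libraries with few genes, and 7 against non-cachectic mice (0) with array weights. At 6 weeks, 51 against controls and 41 against non-cachectic mice became 9 and 8 over nuclear-encoded TPM, 0 and 0 with median-ratio scaling, 15 and 14 with quantile normalization, and 0 and 0 by Dunn's test and with a log2 difference over 1. The count of 41 became 73 with array weights, 68 without the libraries with few genes and 65 in a fit of 2 groups. At 8 weeks, 72 and 71 became 1 and 0 with a log2 difference over 1, and 71 became 44 in a fit of 2 groups and 34 by Dunn's test. Rpl3l was the 1 member called lower at 8 weeks in both comparisons over nuclear-encoded TPM and with quantile normalization. The shares of all genes called under these alternatives and without single mice are not given, so these are counts of members alone.

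Leaving out 1 mouse at a time gave 0 to 39 members against controls at 2 weeks, 20 to 58 at 6 weeks and 69 to 76 at 8 weeks, and 0 to 24, 14 to 52 and 67 to 75 against non-cachectic mice. Of 60 same-numbered pairs of mice, 18 had deviations correlated above 0.1 (range -0.633 to 0.387). Pairs of unlike number are not given beside them, so this cannot show whether replicate numbers pair the mice. With the number as a replicate block, 2, 31 and 70 members were called against controls at 2, 6 and 8 weeks, and 21 and 69 against non-cachectic mice at 6 and 8 weeks. Member medians with median-ratio scaling were 0.80 (from 0.29) at 2 weeks and 0.28 (from 0.47) at 6 weeks against controls, 0.43 (from 0.14) at 2 weeks against non-cachectic mice, and 0.36 (from 0.14) for non-cachectic minus control mice at 2 weeks, where array weights gave -0.0507 and leaving out the libraries with few genes -0.0279. Quantile normalization gave 0.30 at 6 weeks against controls. Leaving out 1 mouse gave medians of 0.0793 to 0.32 for cachectic minus non-cachectic mice and -0.0279 to 0.19 for non-cachectic minus control mice at 2 weeks. The share of TPM differed between cachectic and control mice by 1.55 and 1.99 percentage points at 2 and 8 weeks over nuclear-encoded TPM, and by 0.491 and 1.30 over all TPM.

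The log2 ratio of Rpl3l to Rpl3 at 2 weeks turned to 0.21 for cachectic and 0.33 for non-cachectic minus control mice without the libraries with few genes. Leaving out 1 mouse gave -0.37 to 0.00998 and -0.13 to 0.10 for cachectic minus control mice at 2 and 4 weeks, -0.49 to 0.0375 for cachectic minus non-cachectic mice at 2 weeks, and -0.22 to 0.33, -0.14 to 0.0047 and -0.14 to 0.0166 for non-cachectic minus control mice at 2, 6 and 8 weeks. None of these passed the test in the fit reported. Rpl3l itself at 6 weeks against controls was -0.15, -0.18 and -0.21 over nuclear-encoded TPM, with median-ratio scaling and with quantile normalization, and -0.0292 to 0.069 without 1 mouse. Against non-cachectic mice it was 0.0095 at 6 weeks without the mice with high liver genes, -0.0882 to 0.0095 without 1 mouse, and 0.0389 at 8 weeks with array weights. Of the values of single named genes, 577 kept direction and call under the alternatives, 128 lost the call, 18 gained it and 5 reversed, all 5 of Rpl3l.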

Other observations

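Short ribosomal protein genes differed somewhat more than long ones at 8 weeks. The 39 members with a coding sequence of at most 462 bases had a median difference of 0.72 against controls and the 39 longer ones 0.63, with a Spearman correlation of -0.29 between coding length and difference across the 78 members. Other genes that short, 875 in number, had a median of 0.06, and the 11490 longer ones -0.12. At 6 weeks the 2 sets of members were alike at 0.47 and 0.47 (Spearman 0.05). At 2 weeks they had 0.30 and 0.25 (Spearman -0.26). Length went with a wider gap among the other genes of that week, at -0.00075 for the short and -0.46 for the longer ones. These are descriptions across genes, which are not replicates.

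Rps12-ps3, a pseudogene of Rps12 that was not counted as a copy above, was more abundant than Rps12 at 8 weeks in every cachectic mouse, with 691 to 1216 TPM against 304 to 685 TPM, and in every control, with 431 to 563 TPM against 157 to 326 TPM. Control mouse 4 at 4 weeks had 39.2 TPM of Rps12 and 668 TPM of Rps12-ps3, while the other controls of that week had 302 to 420 TPM and 383 to 520 TPM.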
